A study of Homo sapiens with 6 samples.

Results

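ZC3H18, the gene carried by the construct of the experiment, was followed together with 9 other genes in all 6 libraries of SW480 cells, a human colon adenocarcinoma line. The 10 genes were chosen by name, with earlier results of these data known, out of 28307 gene symbols in the deposited tables. They were ZC3H18, ZC3H4, ZC3H6, ZC3H8, ZC3H14, ZC3H13, ZC3H7A, ZC3H11A, ZC3H15 and WDR82. Of these, 9 reached a mean of at least 1 TPM (a transcript level scaled to length and to the total of the library) and were tested, while ZC3H6 stayed under that level and is given by its values. Control cells carried pLENTI CMV Clover, which encodes a fluorescent protein (n = 3), and the other cells carried pLENTI CMV Z18trunc (n = 3). Z18trunc is the coding sequence of ZC3H18 cut short as in the truncation found most often in patients, so that it keeps the zinc finger and lacks the C-terminal domain that recruits RNA decay machinery. Both constructs were delivered by lentivirus, driven by the strong viral CMV promoter and kept under puromycin selection, and both groups still held their own ZC3H18 gene. The lines were made in biological triplicate, and polyadenylated RNA was sequenced from each.

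CCCH zinc fingers are short folds in which 3 cysteines and 1 histidine hold a zinc ion, and most known examples bind RNA. ZC3H18 links the cap-binding complex of a nuclear transcript to the NEXT and PAXT complexes, which hand faulty or unneeded RNA to the exosome for decay. ZC3H4 works with WDR82 in the Restrictor complex, which stops transcription of many of the same kinds of short noncoding transcripts. The remaining genes act elsewhere in RNA life, from the polyadenylated tail to export from the nucleus.

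The finger sequences show what the name of the family rests on and how near the genes stand to each other. They were read from the canonical GENCODE 44 coding sequences (hg38) with a search for cysteine, cysteine, cysteine and histidine codons at CCCH spacing. The search allowed 4 to 15, 4 to 6 and 3 codons between them, so fingers of other spacing were not counted. ZC3H18 held 1 such pattern, in codons 224 to 242, and ZC3H15 and ZC3H13 also held 1. ZC3H4, ZC3H6, ZC3H8, ZC3H7A and ZC3H11A held 3 each and ZC3H14 held 5. WDR82 held 0, since it is a WD-repeat protein that belongs here as the partner of ZC3H4. The first pattern of 5 genes and the single pattern of ZC3H13 follow, written 5′ to 3′ on the coding strand, with the 3 cysteine codons and the histidine codon in capitals.

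ZC3H18: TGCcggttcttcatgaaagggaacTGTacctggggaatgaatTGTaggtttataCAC
ZC3H4: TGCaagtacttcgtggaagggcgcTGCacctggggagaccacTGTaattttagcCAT
ZC3H6: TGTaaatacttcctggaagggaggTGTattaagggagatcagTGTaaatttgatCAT
ZC3H8: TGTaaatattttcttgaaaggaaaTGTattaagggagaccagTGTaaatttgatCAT
ZC3H15: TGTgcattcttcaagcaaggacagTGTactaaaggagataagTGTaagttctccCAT
ZC3H13: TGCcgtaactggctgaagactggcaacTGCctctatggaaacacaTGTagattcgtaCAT

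The ZC3H18 finger is split over 2 coding exons on the plus strand of chromosome 16, at 88586666 to 88586684 and 88598178 to 88598215. The ZC3H4 finger lies on the minus strand of chromosome 19, at 47084345 to 47084377 and 47082272 to 47082295. Those of ZC3H6 (plus strand, 112316554 to 112316586 and 112317221 to 112317244) and ZC3H8 (minus strand, 112234120 to 112234152 and 112233348 to 112233371) both lie on chromosome 2. The ZC3H15 finger sits within 1 exon on the plus strand of chromosome 2 (186501296 to 186501352), and the ZC3H13 finger within 1 exon on the minus strand of chromosome 13 (46044999 to 46045058). The first 5 share a length of 57 bases and the same spacing, with 7 codons between the first and second cysteine and 5 between the next pair. Other patterns of the set share this length and spacing, such as that of ZC3H11A in codons 8 to 26, and were not compared. Over the 57 bases of the 5 patterns, ZC3H18 was identical to ZC3H4 at 39, to ZC3H15 at 34, to ZC3H6 at 33 and to ZC3H8 at 30. It had the same residue as ZC3H4 and as ZC3H15 at 10 of 19 codons each, as ZC3H6 at 8 and as ZC3H8 at 7. ZC3H6 and ZC3H8 were the nearest of the pairs compared, with 50 of 57 bases (87.7%) the same and the same residue at 17 of 19 codons.

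The libraries held 18226033 to 22463310 aligned fragments. SW480 was checked against markers of colon epithelium, and 7 of 9 were at a mean of at least 5 TPM, with KRT8, KRT18, KRT19, EPCAM, CDH1, VIL1 and CDX2 present and KRT20 and CDX1 listed at 0. Melanocyte, immune and stromal marker lists summed to at most 3.76, 5.49 and 1.55 TPM in any library, and MLANA, TYR, PTPRC, DCN and PECAM1 were listed at 0. The level of the median gene was 0.11 higher in Z18trunc on the log2 scale, and -0.01 after quantile normalization, which gives every library the same distribution of values. Clover replicate 2 was the lowest library for 47.8% of the 13300 genes tested and Z18trunc replicate 3 the highest for 30.4%. For 8 of the genes described here (all but ZC3H18 and ZC3H6), the same libraries were the lowest for 7 and the highest for 5. The part of these library differences in the small changes given below was not tested.

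ZC3H18 (chromosome 16, plus strand, 88570403 to 88631964) was the one gene of the set that passed the test. Its level was 58.4, 51.3 and 61.8 TPM in Clover, against 752, 739 and 798 TPM in Z18trunc. All Z18trunc values lay far above all Clover values, and the ratio of the group means was 13.4. The log2 change of log2(TPM + 1) was 3.72, with a 95% interval of 3.50 to 3.94 (limma adjusted p = 3.2e-05). A level per gene sums the gene of the cell and the transcript of the construct, which cannot be told apart in it.

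The rise moved ZC3H18 far up the order of all genes. In Clover, 2738 gene symbols had a higher mean TPM than ZC3H18, and in Z18trunc 177 did. Its share of the summed TPM of the 10 genes was 22.8% to 24.3% in Clover, against 76.7% to 78.3% in Z18trunc. The other 9 genes together summed to 198, 165 and 193 TPM in Clover and to 209, 217 and 243 TPM in Z18trunc. These sums did not overlap (exact two-sided permutation p = 0.1, the smallest that 3 against 3 libraries allow), in the direction of the shift of all genes.

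**Figure D1:**
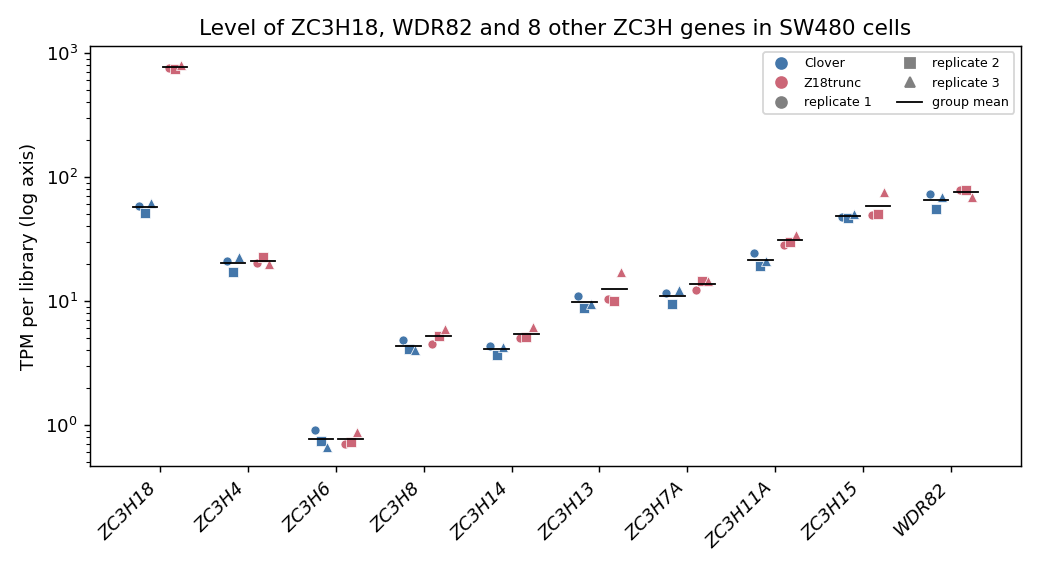
TPM of the 10 genes in each library on a log axis, with Clover in blue, Z18trunc in red, a marker shape for each replicate number and a black line at each group mean. ZC3H18 sits at 51.3 to 61.8 TPM in Clover and at 739 to 798 TPM in Z18trunc, while the points of the 9 other genes lie near each other in both groups.

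In the order of levels per length, WDR82 led in the Clover cells at 65.4 ± 9.11 TPM (SD, n = 3), and its libraries overlapped those of ZC3H18 at 57.2 ± 5.39 TPM. ZC3H15 followed at 48.2 ± 1.77 TPM, apart from both neighbours in the order. ZC3H11A at 21.5 ± 2.71 TPM and ZC3H4 at 20.1 ± 2.81 TPM overlapped, as did ZC3H7A at 11.0 ± 1.48 TPM and ZC3H13 at 9.74 ± 1.18 TPM. ZC3H8 at 4.33 ± 0.450 TPM and ZC3H14 at 4.11 ± 0.363 TPM overlapped as well, and ZC3H6 was the lowest at 0.769 ± 0.123 TPM. In Z18trunc the order of the 9 other genes was the same except that ZC3H14 and ZC3H8, which overlapped again, changed places. ZC3H11A and ZC3H4, which overlapped in Clover, stood apart in Z18trunc.

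Beside ZC3H18, 0 of the 8 other genes tested passed limma after adjustment over all genes. Of all those tested, 2 of 13300 genes passed (0.015%), ZC3H18 and RGPD6. RGPD6 was low in both groups and fell from a mean of 2.28 TPM in Clover to 0.157 TPM in Z18trunc (limma adjusted p = 0.0348). It did not pass after quantile normalization (limma adjusted p = 0.11). Without adjustment, p was under 0.05 for 3 of the 8, each of them higher in Z18trunc, against 25.6% of all genes higher and 2.9% lower. After quantile normalization this held for 1 of the 8, against 12.8% of all genes higher. The Z18trunc libraries lay entirely above the Clover libraries for 3 of the 8 and entirely below for 0, against 30.1% and 6.73% of all genes. The log2 change was above 0 for 8 of the 8, against 68.0% of all genes. After quantile normalization it was above 0 for 7, against 6507 of all 13300 genes, and ZC3H4 turned. The median log2 change of the 8 was 0.27 beside 0.11 for all genes, and after quantile normalization it was 0.12 beside -0.01.

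ZC3H4 (chromosome 19, minus strand, 47064190 to 47113776) is the Restrictor subunit that terminates transcription. It stood at 20.8, 16.9 and 22.4 TPM in Clover and at 20.3, 22.5 and 19.7 TPM in Z18trunc, with the groups overlapping and the lowest value in Clover replicate 2. The log2 change was 0.06, with a 95% interval of -0.22 to 0.34 (limma adjusted p = 0.774). Its sign turned after quantile normalization (-0.086), in the deposited FPKM (-0.0052) and without Clover replicate 2 (-0.052). The interval holds both a small fall and a small rise, so a change of that size was not detectable with these libraries.

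WDR82 (chromosome 3, minus strand, 52254434 to 52278649), which pairs with ZC3H4 and also with the SETD1A and SETD1B histone methyltransferases, read 72.4, 55.1 and 68.6 TPM in Clover. In Z18trunc it read 78.1, 78.9 and 69.3 TPM, so that 2 of the 3 libraries lay above all Clover values and the remaining library lay within them. The log2 change was 0.21, with a 95% interval of -0.07 to 0.50 (limma adjusted p = 0.292).

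ZC3H6 (chromosome 2, plus strand, 112275597 to 112340059) is a close relative of ZC3H4 with a less well described role. It was listed at 0.902, 0.745 and 0.659 TPM in Clover and at 0.696, 0.733 and 0.881 TPM in Z18trunc. Its group means of 0.769 and 0.770 TPM differed by less than the spread between libraries. ZC3H8 (chromosome 2, minus strand, 112211530 to 112255042) belongs to the little elongation complex, which serves transcription of small nuclear RNA genes. Its levels were 4.85, 4.11 and 4.04 TPM in Clover and 4.46, 5.23 and 5.93 TPM in Z18trunc. The groups overlapped through Clover replicate 1 and Z18trunc replicate 1, and the log2 change was 0.22 (limma adjusted p = 0.256).

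ZC3H11A (chromosome 1, plus strand, 203795623 to 203854124), which travels with the TREX complex that exports messenger RNA from the nucleus, had the largest difference after ZC3H18. It was at 24.4, 19.1 and 21.0 TPM in Clover and at 28.0, 30.1 and 34.0 TPM in Z18trunc. All 3 Z18trunc libraries lay above all 3 Clover libraries. The log2 change was 0.50, with a 95% interval of 0.22 to 0.78, and it did not pass the adjustment (limma adjusted p = 0.08, unadjusted p = 0.004). Over the 13 alternatives the log2 change ran from 0.37 to 0.59 and the adjusted p from 0.0506 to 0.207. A near relative, ZC3H11B, may share reads with it.

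ZC3H14 (chromosome 14, plus strand, 88563037 to 88627596), which binds poly(A) tails, was at 4.36, 3.69 and 4.27 TPM in Clover and at 5.002, 5.11 and 6.18 TPM in Z18trunc. The groups did not overlap, with a log2 change of 0.33 (limma adjusted p = 0.0988). After quantile normalization the log2 change was 0.14. ZC3H7A (chromosome 16, minus strand, 11750597 to 11797258), an RNA-binding protein known to bind microRNA precursors, was at 11.5, 9.39 and 12.2 TPM in Clover and at 12.2, 14.4 and 14.3 TPM in Z18trunc. Its groups barely stood apart, since Clover replicate 3 and Z18trunc replicate 1 both read 12.2, and the log2 change was 0.29 (limma adjusted p = 0.166).

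ZC3H13 and ZC3H15 shared a pattern in which 1 library made the difference. ZC3H13 (chromosome 13, minus strand, 45954465 to 46052746) anchors the complex that writes the m6A mark on RNA. It was at 11.0, 8.73 and 9.46 TPM in Clover and at 10.3, 10.0 and 17.1 TPM in Z18trunc, with replicate 3 alone above the Clover range. Its log2 change of 0.30 (limma adjusted p = 0.379) fell to 0.06 without that library. ZC3H15 (chromosome 2, plus strand, 186486260 to 186509360), which stabilizes the GTPase DRG1, was at 47.6, 46.9 and 50.2 TPM in Clover and at 49.6, 50.4 and 75.3 TPM in Z18trunc. Its log2 change of 0.24 (limma adjusted p = 0.366) likewise fell to 0.05 without Z18trunc replicate 3.

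**Figure D2:**
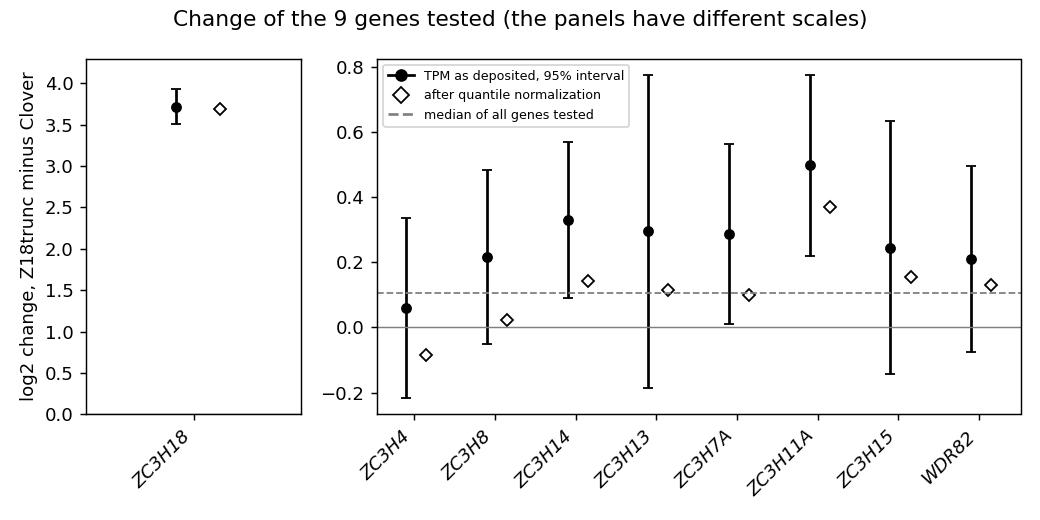
Log2 change of TPM + 1, Z18trunc minus Clover, for the 9 genes tested, with ZC3H18 in a panel of its own scale. Filled points carry 95% intervals from limma, open diamonds show the change after quantile normalization, and the dashed line marks the median of all genes tested at 0.11; ZC3H11A (0.50) is the highest of the 8 genes on the right and ZC3H4 (0.06) the lowest.

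To read the ZC3H18 gene of the cell apart from the construct, fragments on transposable elements (TEs) in its introns were counted, since the construct holds a coding sequence and no intron. Only loci on the strand of the gene, outside every annotated exon and outside any other gene of that strand were taken. ZC3H18 had 31 such loci with fragments, which held 10, 8 and 9 fragments in Clover against 12, 15 and 15 in Z18trunc. All Z18trunc values lay above all Clover values, as they did for 17.9% of the 8413 genes tested this way, and all below for 0.998%. Scaled to 1000000 aligned fragments (CPM), the Clover level was 0.441 ± 0.0205 and that of Z18trunc 0.691 ± 0.146 (SD, n = 3 each; exact two-sided permutation p = 0.1, the smallest possible). The edgeR log2 change was 0.63 (SE 0.49, adjusted p = 0.573), beside a median of 0.30 for all genes tested. Under TMM scaling, which removes a shift shared by all genes, the log2 change was 0.33.

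Intronic fragments of all genes together were also higher in Z18trunc. Their sum went from 13646 ± 1111 CPM in Clover to 16657 ± 1715 CPM with Z18trunc (SD, n = 3 each; exact two-sided permutation p = 0.1), a log2 ratio of 0.29. Over all genes, edgeR called 12 higher and 0 lower, and 1145 higher against 31 lower where p was under 0.05 without adjustment. Under TMM scaling the latter counts were 281 higher and 264 lower, with 1 gene called after adjustment. DESeq2 with its own size factors also called 1, and edgeR called 0 without replicate 2 of either group. A further 7 TE loci inside ZC3H18 touch annotated exons of either strand, and none overlaps a coding exon of ZC3H18. These loci lie 55.4 to 59.8 kb from the start of the gene. They held 21, 14 and 5 fragments in Clover and 22, 16 and 10 in Z18trunc, which overlapped (exact two-sided permutation p = 0.6).

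**Figure D3:**
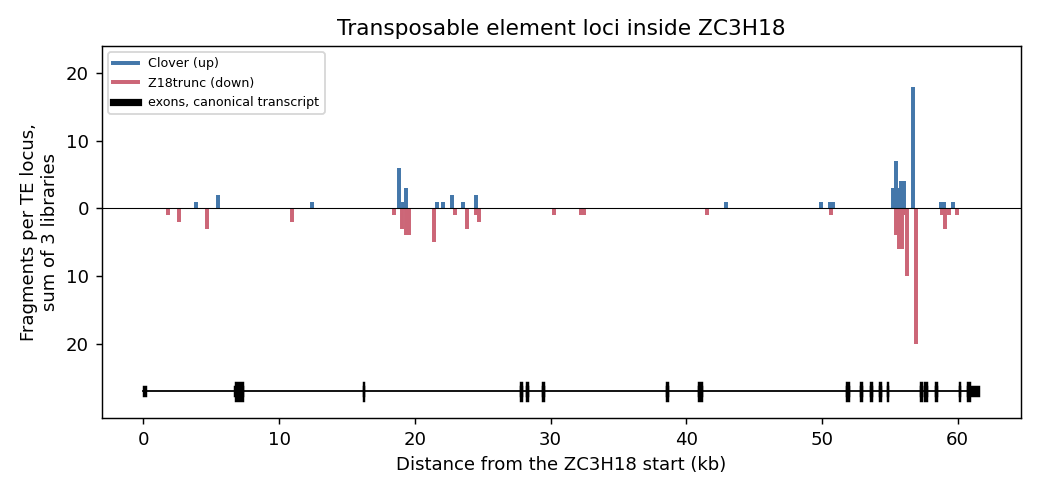
Fragments on the 38 TE loci inside ZC3H18 on its own strand, summed over the 3 libraries of each group, by distance from the start of the gene in kb; Clover points up in blue, Z18trunc down in red, and black boxes below are exons of the canonical transcript. The 31 loci outside exons hold 27 fragments in Clover and 42 in Z18trunc, and the 7 loci near the 3′ end that touch annotated exons hold 40 and 48.

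The gene level and the intronic level of ZC3H18 moved by very different amounts. Its gene level includes the transcript of the construct, which holds no intron, so a rise in their difference was built into the design. Per library, log2(TPM + 1) minus log2(intronic CPM + 0.1) was 6.77, 6.66 and 6.81 in Clover and 10.21, 9.65 and 9.94 in Z18trunc. The difference of 3.19 between the groups did not overlap (exact two-sided permutation p = 0.1), and all Z18trunc values lay above all Clover values for 2.86% of the 7832 genes that could be compared. It was the largest of those genes, and the next was SMG1P5 at 1.97, a gene with near-identical copies, chosen after its value was seen.

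For the 9 other genes, the change in gene level minus intronic level lay between -0.87 (WDR82) and 0.69 (ZC3H14). The median of this change over the 7832 genes compared was -0.11. WDR82 had 10, 9 and 5 intronic fragments in Clover and 24, 13 and 21 in Z18trunc, with no overlap. Its edgeR log2 change was 1.24 (SE 0.46, unadjusted p = 0.0073, adjusted p = 0.191). Its gene level minus its intronic level differed by -0.87 on the log2 scale, Z18trunc minus Clover (exact two-sided permutation p = 0.1). For that value the groups barely stood apart, since replicate 2 of each read 6.62. The share of all genes that lay entirely lower in it is not given here. ZC3H13 had 25, 25 and 27 intronic fragments in Clover and 42, 23.9 and 55 in Z18trunc, with the highest value again in replicate 3 (edgeR log2 change 0.62, adjusted p = 0.34). ZC3H14 was the one gene of the set with a negative intronic log2 change, -0.39 (edgeR adjusted p = 0.667), from 25, 23 and 18 fragments in Clover to 22, 13 and 16 in Z18trunc. Its gene level minus its intronic level lay higher in all Z18trunc libraries (exact two-sided permutation p = 0.1), as for 2.86% of the genes compared.

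ZC3H4 held 28, 13 and 12 intronic fragments in Clover and 23, 22 and 30 in Z18trunc, where Clover replicate 1 lay inside the Z18trunc range. ZC3H6, with 20, 1 and 4 fragments in Clover and 8, 10 and 8 in Z18trunc, was too sparse for any reading. ZC3H8, ZC3H7A, ZC3H11A and ZC3H15 overlapped between groups, with edgeR log2 changes of 0.49, 0.65, 0.22 and 0.67 and adjusted p-values of 0.464, 0.455, 0.804 and 0.43. Thus 2 of the 10 genes, ZC3H18 and WDR82, had intronic values that did not overlap and were higher, against 17.9% of all genes, and 0 of 10 were called by edgeR or by DESeq2, while edgeR called 0.143% of all genes. At an unadjusted p under 0.05, edgeR had 2 of the 10 higher, WDR82 and ZC3H13, against 13.6% of all genes. Under TMM scaling it had 1, WDR82, against 281 of all 8413 genes. DESeq2 had 0 of the 10 higher at that p, against 122 of 8413.

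**Figure D4:**
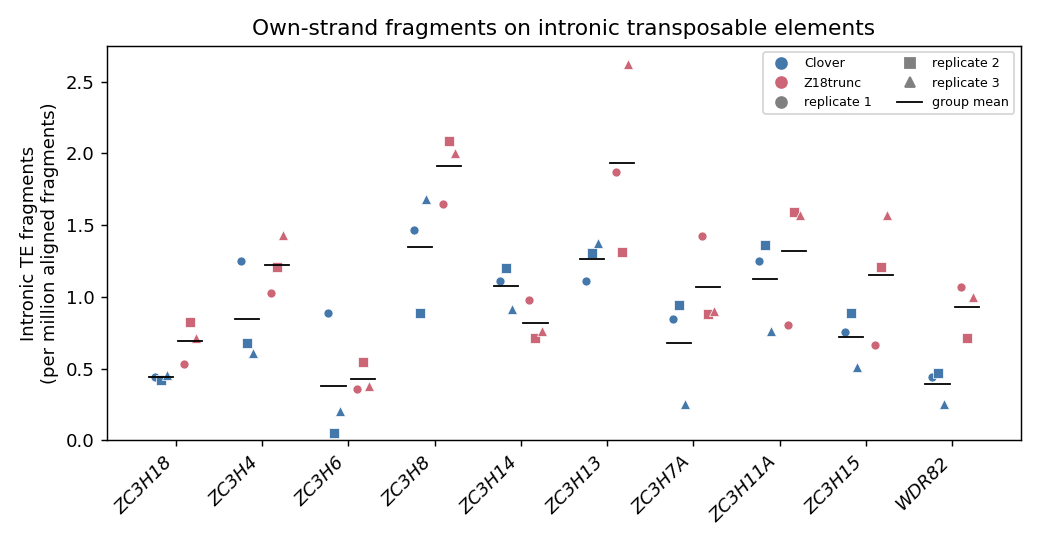
Fragments on intronic TE loci of each gene in CPM, by library, with colours, shapes and lines as in the plot of TPM by library. ZC3H18 lies at 0.418 to 0.458 in Clover and at 0.534 to 0.823 in Z18trunc, and apart from ZC3H18 and WDR82 the groups of every gene overlap.

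Other genes with CCCH fingers were read from the same fit. Of 46 listed, 41 were tested, and limma called 0 of them after adjustment over all genes. Without adjustment, p was under 0.05 for 14 of 41, each of them higher, against 25.6% of all genes higher and 2.9% lower. Of the 41, 16 lay entirely higher in Z18trunc (39.0%, against 30.1% of all genes). Their median log2 change was 0.19, beside 0.11 for all genes. After quantile normalization it was 0.04 beside -0.01, with 24 above 0 and 17 below, against 6507 and 6793 of all 13300 genes. With that normalization, 8 of 41 were higher at an unadjusted p under 0.05 and 1 was lower. Of all 13300 genes, 1708 (12.8%) were higher and 1448 lower at that p. U2AF1, a splicing factor that reads the 3′ splice site, had the highest level, at 430.0, 431 and 408 TPM in Clover and 412, 259 and 413 TPM in Z18trunc. Its annotation holds a near-identical copy, so its reads may be divided. ZFP36L1, which marks AU-rich messages for decay, went from 211 ± 13.2 to 257 ± 16.8 TPM (SD, n = 3 each; log2 change 0.29, limma adjusted p = 0.0962).

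DHX57, a helicase with a CCCH finger, had the largest log2 change of that list, 0.48 (SE 0.09, limma adjusted p = 0.0773), from 6.59, 5.50 and 6.08 TPM to 8.44, 8.64 and 9.41 TPM. PAN3, a subunit of a deadenylase, followed at 0.47 (SE 0.12, limma adjusted p = 0.0841), from 12.2 ± 1.98 to 17.3 ± 1.49 TPM (SD, n = 3 each). Neither passed the test, although neither overlapped between groups.

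Partners of ZC3H18 in the cap-binding, NEXT and PAXT complexes were 8 genes, and limma called 0 of them, while 6 had an unadjusted p under 0.05, each of them higher (25.6% of all genes). Their median log2 change was 0.36, and 7 of 8 did not overlap and were higher (30.1% of all genes). After quantile normalization the median was 0.24, and 4 of 8 were higher at that p, against 12.8% of all genes. Most abundant were SRRT, the ARS2 scaffold on the cap-binding complex, at 167 ± 5.34 and 171 ± 8.88 TPM, and PABPN1, the nuclear poly(A)-binding protein, at 139.9 ± 3.08 and 151 ± 4.44 TPM (Clover and Z18trunc; SD, n = 3 each). At a mean of at least 5 TPM the largest changes were those of ZCCHC8, the NEXT scaffold (0.42, limma adjusted p = 0.0783), and MTREX, the helicase both complexes share (0.39, limma adjusted p = 0.148). MTREX stood at 17.9, 16.8 and 24.9 TPM in Z18trunc, with replicate 3 again the highest.

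Restrictor and WDR82 partners, 8 genes, had a median log2 change of 0.12, near that of all genes, and limma called 0 of them (2 had an unadjusted p under 0.05, both higher, against 25.6% of all genes). The median after quantile normalization was 0.02, with 2 of 8 higher at that p, against 12.8%. PPP1CA, a catalytic subunit of protein phosphatase 1, was the most abundant at 778 ± 29.1 and 747 ± 25.3 TPM, and SRRT followed. The sister subunits PPP1CB and PPP1CC had the largest changes, 0.36 and 0.35 (limma adjusted p = 0.0823 and 0.0773). PPP1CC was at 101, 90.0 and 104 TPM in Clover and 127, 125 and 124 TPM in Z18trunc.

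The m6A writer partners of ZC3H13, 7 genes, had a median log2 change of 0.34 and 6 that did not overlap (30.1% of all genes), and limma called 0 (4 had an unadjusted p under 0.05, each higher, against 25.6% of all genes). With quantile normalization the median was 0.23 and 3 of 7 were higher at that p (12.8% of all genes). Then 2 of the 7 had a log2 change below 0, against 6793 of all 13300 genes. The most abundant were RBM15B, at 48.0 ± 2.23 and 50.2 ± 2.87 TPM, and METTL3, the catalytic subunit, at 40.2 ± 2.19 and 43.7 ± 1.17 TPM (SD, n = 3 each). The scaffold VIRMA had a log2 change of 0.53 (limma adjusted p = 0.0849) and CBLL1 one of 0.37 (limma adjusted p = 0.124).

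The little elongation complex partners of ZC3H8, 5 genes, had a median of 0.33, with 0 called by limma and 4 higher at an unadjusted p under 0.05, against 25.6% of all genes. Quantile normalization left 1 of 5 higher at that p (12.8% of all genes) and a median of 0.14. ELL, an elongation factor, read 13.8 ± 0.891 and 13.9 ± 0.934 TPM, and COIL, the protein of Cajal bodies, 8.10 ± 0.818 and 10.4 ± 0.730 TPM (SD, n = 3 each). USPL1 and ICE1, both factors of small nuclear RNA transcription, had log2 changes of 0.49 and 0.46 (limma adjusted p = 0.0874 and 0.117). The 4 partners of ZC3H15 and ZC3H11A had a median of 0.06, with 0 called by limma and 0 at an unadjusted p under 0.05. They were led by the export factors DDX39B (412 ± 22.8 and 420.0 ± 9.49 TPM) and ALYREF (284 ± 17.3 and 269 ± 9.92 TPM). THOC2, with a log2 change of 0.32 (limma adjusted p = 0.298), read 10.7, 11.3 and 17.8 TPM in Z18trunc, beside 10.8, 9.28 and 10.5 TPM in Clover, so that the groups overlapped and replicate 3 was the highest. DRG1, the GTPase that ZC3H15 stabilizes, had a log2 change of 0.081 and overlapped between groups.

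Over all partner lists, 16 of 31 genes were higher at an unadjusted p under 0.05 and 20 did not overlap, against 25.6% and 30.1% of all genes. These lists and that of other CCCH genes were chosen with earlier results of these data known. Their counts beside all genes are therefore a description and not a test. Scaled by quantile normalization, 10 of 31 were higher at that p, against 12.8% of all genes, and the median log2 change went from 0.32 to 0.14. The count of calls depended on the filter on low levels. Among the 9973 genes at a mean of at least 5 TPM, limma called 474 genes (453 higher and 21 lower), among them DHX57 and the partners RBM7, ZCCHC8, PPP1CC and WTAP, with adjusted p-values from 0.0486 to 0.0495. ZC3H18 was the one gene called of the original 10 there too.

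**Figure D5:**
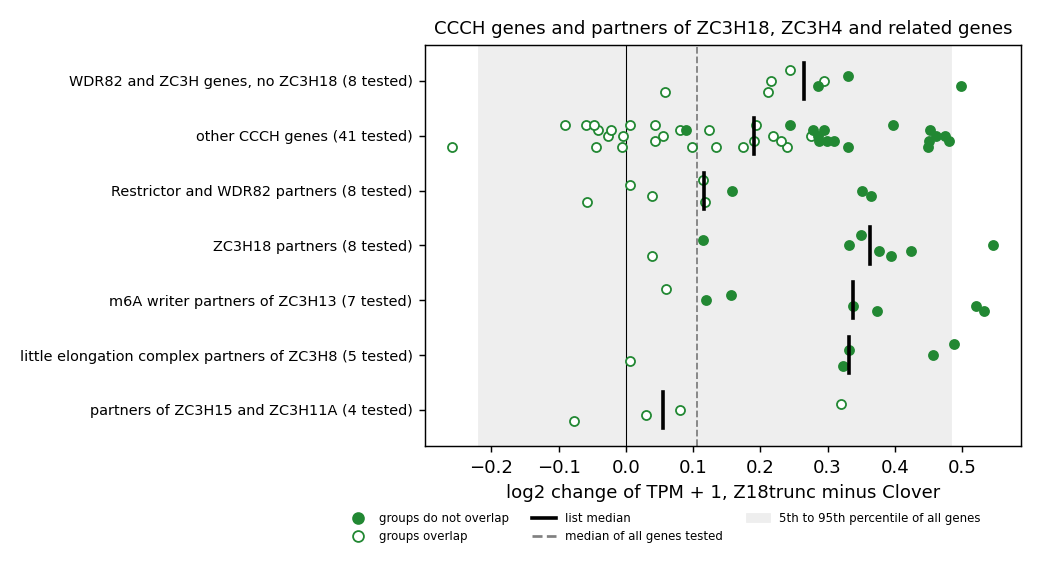
Log2 change of every gene tested in each list, with filled points where the groups do not overlap, a black bar at each list's median, a dashed line at the median of all genes (0.11) and grey shading from the 5th to the 95th percentile of all genes (-0.22 to 0.48). The medians run from 0.06 for the partners of ZC3H15 and ZC3H11A to 0.36 for the ZC3H18 partners, and most points lie inside the shading.

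Profiles over the 6 libraries, each centred on its Clover mean, were compared among 9973 genes with a mean of at least 5 TPM. None came near ZC3H18: C1GALT1C1, H3C8 and SLX1B were the nearest, at root mean square distances of 1.59, 1.62 and 1.62 on the log2 scale. SLX1B (0.662 TPM in Clover and 30.6 TPM in Z18trunc) has a near-identical copy, and H3C8 is 1 of many like histone genes. ZC3H4 had close company in ANKRD52, PPRC1 and PACC1, at distances of 0.032, 0.036 and 0.037.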

How the data were processed

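Stranded paired-end libraries of polyadenylated RNA were trimmed by the authors with cutadapt 4.6 and mapped to hg38 within SQuIRE. The mapper version and the gene annotation used for these libraries are not given in the sources used here. The deposited gene tables give TPM and FPKM, which the authors scaled per library, and TPM was summed by symbol. The deposited TE tables give uniquely mapped counts and estimated counts per locus and strand, which the authors did not normalize, and the aligned fragments. Genes with a mean of at least 1 TPM entered a limma 3.58.1 fit of log2(TPM + 1) in R 4.3.3. Such changes understate those of low genes. Estimated counts in introns (GENCODE 44), summed by gene and rounded, entered the quasi-likelihood fit of edgeR 4.0.16 at 30 counts or more, with aligned fragments as library size. Depth leaves a count of 0 room for up to 3 counts, or 0.134 to 0.165 CPM, for counting error only. Adjustment was by Benjamini-Hochberg over all genes. Exact permutation tests were two-sided.

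Genes named from a list were the 2 most abundant, the 2 with the largest absolute change at a mean of at least 5 TPM and any that limma called. The 10 genes and the lists were chosen with earlier results of these data known. Alternatives were another pseudocount, filters, FPKM, quantile normalization, an intensity trend, a replicate block, other locus sets, TMM, DESeq2 1.42.0 and dropping each library in turn. Both fits were also run on simulated data, with outcomes not given here. P-values take the libraries as the replicates. Within groups, uniquely mapped counts of TE loci differed by more than counting noise (chi-square per degree of freedom 1.70 to 2.15). The same was not measured for gene levels.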

Additional observations from a re-analysis of the deposited data

How the results depend on the processing

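ZC3H18 stayed called with limma in all 13 alternatives, with log2 changes from 3.63 to 3.78, and no other of the 10 genes was called in any. The direction of ZC3H4 turned after quantile normalization (-0.086), in FPKM (-0.0052) and when 1 library was left out (-0.052 to 0.14, negative without Clover replicate 2); the cause was not tested. Calls over all genes, 2 in the reported fit, numbered 474 at a mean of at least 5 TPM, where fewer genes were tested, 60 with an intensity trend, and 1 with a pseudocount of 0.1, with no filter, after quantile normalization and with the replicate block, and ran from 1 to 4 when 1 library was left out (4 without Clover replicate 2, 1 without Z18trunc replicate 1). At a mean of at least 5 TPM, limma called 1 other CCCH gene and 4 partner genes, among 474 of all 9973 genes tested. Of those 474, 453 were higher and 21 lower. In the other alternatives limma called no other CCCH gene and no partner gene. ZC3H8 and ZC3H14 fall under that filter. Calls on intronic TE fragments, 12 in the reported fit, numbered 45 over all loci inside genes, 1 with loci at least 500 bases from exons, 1 with TMM, 1 with DESeq2, 2 with no filter and 0 with the replicate block, and ran from 0 to 39 when 1 library was left out, with 0 when the one dropped was replicate 2 of either group, 3 when it was replicate 3 of either group, 39 for Clover replicate 1 and 32 for Z18trunc replicate 1. The causes were not tested. The intronic log2 change of ZC3H18 ran from 0.33 to 0.79 and was called in none; under the higher count filter it could not be fitted, since ZC3H18 has 69. The exonic minus intronic change ran from 3.05 to 3.37. Replicate numbers carried no visible shared effect, since same-numbered deviations correlated at -0.04, 0.02 and -0.04. Whether the samples were made in pairs is not stated in the sources used here. The replicate block left the ZC3H18 log2 change at 3.72 (limma adjusted p = 0.0015). With 8 to 15 intronic fragments a library, small changes of the ZC3H18 gene of the cell were not detectable at this depth.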

Other observations

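Other gene symbols that begin with ZC3H were looked up after the values of the 10 genes were known. ZC3H11B, a relative of ZC3H11A, was at 4.56 ± 0.391 TPM in Clover and 5.94 ± 0.682 TPM in Z18trunc (SD, n = 3 each), with all 3 Z18trunc libraries higher (log2 change 0.32, limma adjusted p = 0.103). ZC3HC1, which despite its symbol is known for a role at the nuclear pore, was at 34.5 ± 3.00 and 35.0 ± 2.27 TPM (log2 change 0.02, limma adjusted p = 0.89). ZC3HAV1L was at 7.05, 2.72 and 5.74 TPM in Clover and at 7.90, 7.77 and 7.53 TPM in Z18trunc, and its low value in Clover replicate 2 widened the spread (log2 change 0.57, limma adjusted p = 0.211). ZC3H18-AS1, the antisense neighbour of ZC3H18, was listed at 0.476, 0.297 and 0.212 TPM in Clover and at 0, 0 and 0.195 TPM in Z18trunc, under the level at which genes were tested.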
